A study of Mus musculus with 15 samples.

Results

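The genes described here are 34 genes of meiosis, among 54838 gene identifiers counted in sorted foetal gonocytes, the male germ cells before birth. They were chosen by name as meiosis genes, by a rule that uses no level, though with earlier results of these data known, and were matched to the counts by Ensembl identifier. RNA was sequenced from gonocytes of E16.5 testes, late in gestation, with 3 control and 3 Tex15-/- libraries. The study asked what the germ cell protein TEX15 does in foetal silencing of transposons. The questions followed here are which meiosis genes were already transcribed before birth, and whether their levels differed without Tex15.

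Control gonocytes were Tex15+/-; Miwi2 tdTom/+ and mutant gonocytes were Tex15-/-; Miwi2 tdTom/+, so that all animals carried the tdTomato reporter allele of Miwi2 and the controls carried 1 copy of the mutant Tex15 allele. The mutant allele has an insertion in an exon, was made by CRISPR/Cas9 and descends from a single founder, on a mixed B6CBAF1/Crl; C57BL/6N background. Cells were sorted by tdTomato fluorescence, which follows the expression of Miwi2. The labels do not say whether the 3 libraries of a genotype came from separate foetuses or pools, so p-values measure the spread between these libraries, which may be partly technical.

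Meiosis turns diploid germ cells into haploid gametes. Homologous chromosomes are broken and repaired on each other, while cohesin and HORMA domain proteins organise each chromosome along an axis, and the synaptonemal complex zips the axes of homologues together. In the female mouse germ cells begin meiosis in the foetal ovary, whereas in the male they stay mitotically arrested through this foetal stage and begin meiosis only after birth.

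Libraries held 4893265 to 5697020 reads on genes. Tex15 was lower in every library labelled Tex15-/-, at 48.1, 23.7 and 25.6 RPKM (reads per kilobase of exon, scaled to library size) against 155, 171 and 171 in controls. Its log2 fold change was -2.35 ± 0.23 (SE), and its p adjusted by Benjamini-Hochberg was 0.0112 in the quasi-likelihood test of edgeR, short of the threshold of 0.01 used here. The germ cell label was checked with 15 germ cell identity genes, whose summed level was 1083 to 1159 RPKM in controls and 1089, 995 and 1134 in Tex15-/- libraries 1, 2 and 3. The highest, the RNA helicase gene Ddx4 and Dppa4, had 224 to 248 and 207 to 222 RPKM in controls and 219 to 243 and 174 to 211 in Tex15-/- libraries. Of the 14 tested 0 were called by edgeR and 1 had an unadjusted p under 0.05, against 0% and 9.2% of all genes. Every Tex15-/- library was below every control for 2 of them, Dazl and Nanos3, against 6.63% of all genes. Mov10l1, a piRNA pathway helicase, had 123 to 131 RPKM in controls and 129, 62.6 and 129 in Tex15-/- libraries. The Tex15-/- libraries were unlike each other. Of 38 markers of Sertoli, Leydig, interstitial, endothelial and blood cells, 37 were above every control in Tex15-/- library 2, 33 in library 3 and 5 in library 1. These counts are description only, as the share of all genes above every control in a single library is not given here. The summed level of the 38 markers was 34.0, 51.5 and 39.0 RPKM in controls and 34.8, 536 and 189 in Tex15-/- libraries 1, 2 and 3. Amh and Inha, hormone genes of Sertoli cells, had 0.109 to 0.542 and 0.247 to 1.23 RPKM in controls, and 16.9 and 15.1 in Tex15-/- library 2. Cyp17a1 and Hsd3b1, enzymes of steroid synthesis in Leydig cells, had 0.856 to 5.79 and 0.295 to 4.59 RPKM in controls, and 87.1 and 39.8 in library 2. The interstitial collagens Col1a1 and Col3a1 had at most 4.53 and 1.75 RPKM in controls, and 57.8 and 60.5 in library 2. The endothelial Cdh5 and Tek had at most 5.42 and 3.78 RPKM, and 20.9 and 6.04. The blood cell genes Lyz2 and Hba-a2 had at most 1.39 and 1.64 RPKM, and 8.89 and 4.59. In library 3 the endothelial markers summed to 11.8 RPKM, within the 11.6 to 12.4 of controls. Its sums for Sertoli, Leydig, interstitial and blood markers, at 37.8, 57.2, 51.5 and 31.1 RPKM, were above every control. Insl3 and Hba-a1 were the only 2 of the 38 with 0 reads in all controls, where Star, another Leydig marker, had 2.86 to 5.20 RPKM and Hba-a2 1.36 to 1.64. Reads outside annotated exons, as a share of those on genes or outside exons, were 36.6% to 41.2% in controls, 41.6% in Tex15-/- library 1, 22.3% in library 2 and 30.2% in library 3. Since these are bulk samples, fewer germ cells in a library and less of an RNA per germ cell cannot be told apart.

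Most meiosis genes were already transcribed in control gonocytes. With transcribed taken as at least 1 RPKM in every control, 30 of the 34 qualified, against 49.9% of 21998 protein-coding genes. Their median level was 7.95 RPKM against 1.37 for protein-coding genes, and 22 of the 34 lay in the upper 25% of protein-coding genes. A mean of at least 10 RPKM was reached by 15 of the 34, against 14.7% of protein-coding genes. The other 4, Meiob, Msh5, Terb1 and Mei4, had a mean above 0.1 RPKM in controls but were under 1 RPKM in at least 1 control.

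**Figure D1:**
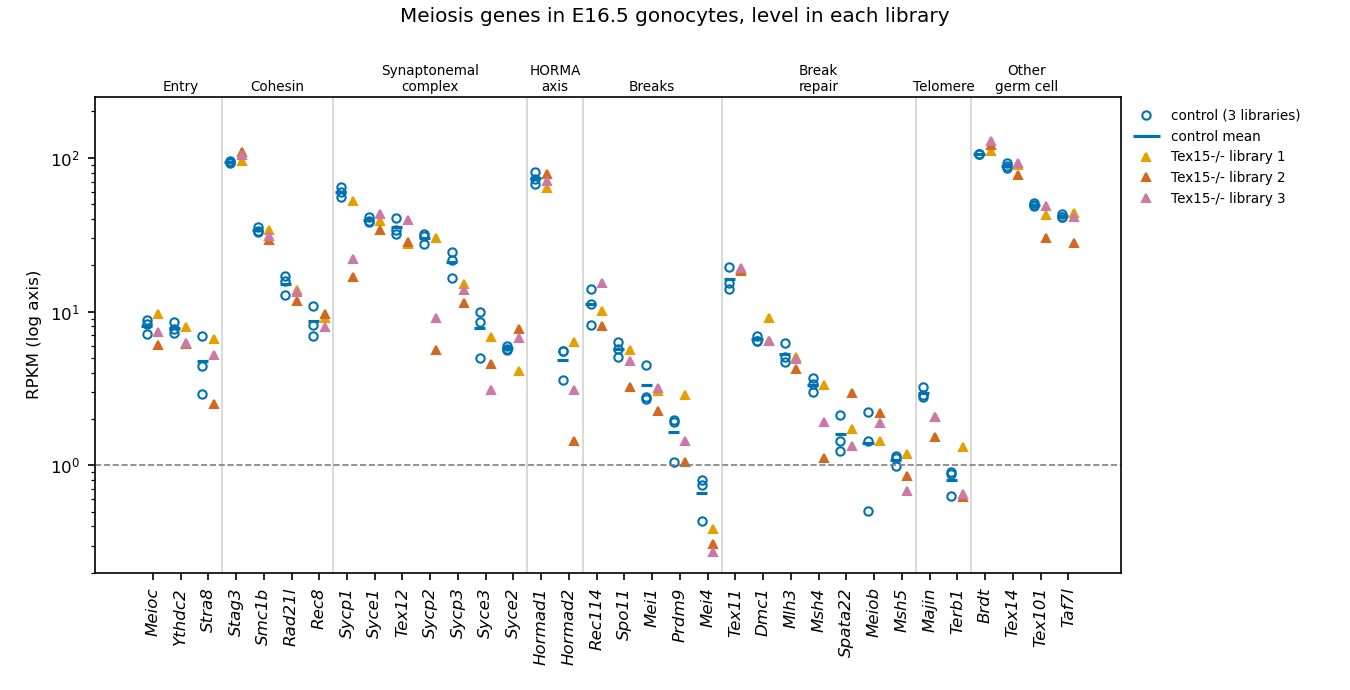
Level of each of the 34 genes in every library, in RPKM on a log axis, grouped by role. Open circles are the 3 controls, horizontal bars their mean, triangles the 3 Tex15-/- libraries, and the dashed line marks 1 RPKM. Control levels run from 0.659 for Mei4 to 106 for Brdt, and the triangles of Tex15-/- libraries 2 and 3 lie well below the circles for Sycp2 and Sycp1.

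The highest and lowest control means differed 161-fold. Ordered by mean, the ranges over controls overlapped for 22 of the 33 pairs of neighbouring genes, so that ranks were resolved mainly at the top. Over all exon bases, the first 7 genes, Brdt, Stag3, Tex14, Hormad1, Sycp1, Tex101 and Taf7l, had ranges that did not overlap from each to the next. Over the exon bases that Sycp3 shares with no other gene, its controls ran from 34.7 to 51.1 RPKM, across the ranges of Tex101 and Taf7l. For 15 of the 34 the variance between controls was more than 3 times that of counting error (chi-square per degree of freedom).

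Genes of meiotic entry were present at moderate levels. Stra8, which retinoic acid induces and which is needed to start meiosis, had 4.45, 6.92 and 2.91 RPKM in controls. It was among the most variable, at 4.76 ± 2.02 (SD, n = 3) from 29 to 63 reads. Meioc and Ythdc2, partners in an RNA-binding complex that lets germ cells leave the mitotic programme, were steadier at 8.09 ± 0.86 and 7.82 ± 0.65 RPKM.

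All 4 meiotic cohesin subunits were transcribed. Stag3 stood highest, at 93.9, 95.0 and 93.0 RPKM, a level second only to Brdt. Smc1b followed with 33.8 ± 1.33 RPKM. The alternative kleisins Rad21l and Rec8, which close the cohesin ring, were lower, at 15.2 ± 2.10 and 8.71 ± 2.02 RPKM.

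All 7 synaptonemal complex genes were transcribed too. Sycp1, which encodes the transverse filament that bridges the axes, had 55.5, 59.5 and 64.6 RPKM. The axial element genes Sycp2 and Sycp3 had 30.0 ± 2.30 and 20.8 ± 3.96 RPKM, although over unshared exon bases the mean of Sycp3 was 43.6 RPKM, above that of Sycp2. Among genes of the central element, Syce1 with 39.5 ± 1.52 and Tex12 with 35.5 ± 4.44 RPKM were well above Syce3 with 7.81 ± 2.52 and Syce2 with 5.79 ± 0.17. The HORMA domain genes, whose proteins mark unsynapsed axes, were far apart, with Hormad1 at 73.8 ± 6.84 RPKM and Hormad2 at 4.87 ± 1.10.

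Genes for making DNA breaks ranged from trace to moderate levels. Spo11, the enzyme that cuts, had 5.67, 6.36 and 5.08 RPKM. Among its accessory factors Rec114 had 11.2 ± 2.94, Mei1 3.32 ± 0.99 and Mei4 0.659 ± 0.197 RPKM. Prdm9, the histone methyltransferase that places the breaks, had 1.90, 1.98 and 1.05 RPKM, just inside the limit of 1.

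Break repair genes spanned a similar range. The X-linked Tex11, needed for crossovers and synapsis, was highest with 16.2 ± 2.77 RPKM. The recombinase gene Dmc1 had 6.96, 6.42 and 6.40 RPKM, a spread within counting error. The crossover factors Mlh3, Msh4 and Msh5 had 5.32 ± 0.80, 3.35 ± 0.35 and 1.08 ± 0.08 RPKM, and 1 control placed Msh5 just under 1, at 0.990. The length used, all annotated exons together, is 6895 bases for Msh4 and 5526 for Msh5. Their longest transcripts have 3325 and 2886 bases, over which both levels would be higher. Meiob and Spata22, which encode partners on single-stranded DNA, had 1.39 ± 0.86 and 1.60 ± 0.47 RPKM from 5 to 22 and 8 to 15 reads. Over the exon bases that Spata22 shares with no other gene its mean was 8.20 RPKM. Majin and Terb1, whose proteins tether telomeres to the nuclear envelope, had 2.96 ± 0.24 and 0.800 ± 0.150 RPKM.

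The 4 germ cell genes with roles beyond chromosome pairing were all high. Brdt, a bromodomain reader of acetylated histones, was the highest member and the most even, at 106 ± 0.34 RPKM (SD, n = 3). Tex14, a component of the bridges that join germ cells, had 88.9 ± 3.39 RPKM. Tex101, a germ cell surface protein, had 49.5 ± 1.17, and Taf7l, an X-linked germ cell form of a general transcription factor subunit, had 41.9 ± 1.21.

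Levels per length were affected where exons are shared with a neighbouring gene. In Sycp3, 52.2% of exon bases lie under exons of Chpt1 on the opposite strand, and in Rec114, 26.9% lie under Nptn. Spata22 shares 80.5% of its exon bases with Gm49340 on the same strand, which had 0 reads. None of 267 annotated genes of at least 200 exon bases that lie wholly under exons of the opposite strand had a read in any library, as happens where reads on shared exons are left out as ambiguous. Over unshared bases alone, control means came to 43.6 ± 8.30 RPKM for Sycp3, 15.3 ± 4.03 for Rec114 and 8.20 ± 2.40 for Spata22, so these 3 levels may be understated above.

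Other lists were read by the same limit. Of 40 further meiosis genes, 34 were transcribed in controls. Besides Tex15, the highest were Fkbp6, a co-chaperone of germ cells, with 149 ± 13.0 RPKM, Tcfl5, a transcription factor of spermatocytes, with 75.1 ± 1.80, Mnd1, which aids strand exchange by Dmc1, with 61.8 ± 5.91, and Zcwpw1, a reader of histone marks made by PRDM9, with 57.0 ± 3.91. Of 15 germ cell identity genes 13 were transcribed. Of 16 genes of spermatids and later spermatocytes 4 were, the highest being Ldhc, a germ cell lactate dehydrogenase, at 10.9 to 12.8 RPKM and the transition protein gene Tnp1 at 7.04 to 10.9.

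Promoter sequences are shown for Brdt, Stag3, Tex12 and Sycp1, as highly transcribed members with the E-box CACGTG near their start, and for Sycp2, as a highly transcribed member without it. The windows hold 250 bases before and 50 after the start of the gene in RefSeq, on build GRCm38.p6, and run 5′ to 3′ on the strand of the gene. Those of Brdt and Stag3 are on the plus strand at chr5:107330944-107331243 and chr5:138280259-138280558. Those of Tex12, Sycp1 and Sycp2 are on the minus strand at chr9:50561219-50561518, chr3:102936051-102936350 and chr2:178407609-178407908. Capitals mark CACGTG and, in Stag3 and Tex12, a match to the E2F-type motif TTCGCGC, read there on the opposite strand as GCGCGAA.
Brdt: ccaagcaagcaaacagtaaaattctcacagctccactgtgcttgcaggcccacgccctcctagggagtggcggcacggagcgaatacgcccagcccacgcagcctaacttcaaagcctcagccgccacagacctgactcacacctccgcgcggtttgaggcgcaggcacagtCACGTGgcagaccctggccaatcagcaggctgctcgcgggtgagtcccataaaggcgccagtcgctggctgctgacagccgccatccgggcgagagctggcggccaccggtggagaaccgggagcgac
Stag3: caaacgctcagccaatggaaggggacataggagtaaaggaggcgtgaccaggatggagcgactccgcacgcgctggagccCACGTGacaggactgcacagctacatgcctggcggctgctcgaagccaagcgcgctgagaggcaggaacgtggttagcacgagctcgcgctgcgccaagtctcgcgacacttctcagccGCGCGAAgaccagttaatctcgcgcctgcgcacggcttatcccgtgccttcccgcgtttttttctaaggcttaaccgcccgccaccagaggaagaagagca
Tex12: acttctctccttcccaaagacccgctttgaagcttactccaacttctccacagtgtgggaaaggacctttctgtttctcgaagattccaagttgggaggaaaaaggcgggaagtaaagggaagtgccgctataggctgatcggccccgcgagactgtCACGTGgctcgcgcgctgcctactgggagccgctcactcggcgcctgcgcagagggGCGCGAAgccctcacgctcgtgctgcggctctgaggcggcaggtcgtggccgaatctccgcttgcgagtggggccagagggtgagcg
Sycp1: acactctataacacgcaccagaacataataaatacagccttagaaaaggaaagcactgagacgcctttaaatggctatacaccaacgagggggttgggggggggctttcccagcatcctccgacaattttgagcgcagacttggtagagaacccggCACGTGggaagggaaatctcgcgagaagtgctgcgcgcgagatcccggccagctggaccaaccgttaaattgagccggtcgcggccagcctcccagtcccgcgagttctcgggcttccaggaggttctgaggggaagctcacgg
Sycp2: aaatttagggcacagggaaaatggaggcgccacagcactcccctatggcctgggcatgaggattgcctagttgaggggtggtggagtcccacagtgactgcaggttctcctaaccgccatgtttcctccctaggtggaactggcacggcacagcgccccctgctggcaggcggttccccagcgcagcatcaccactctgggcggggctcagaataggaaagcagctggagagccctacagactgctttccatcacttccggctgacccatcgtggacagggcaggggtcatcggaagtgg

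The E-box began 78 bases before the start in Brdt, 170 in Stag3, 93 in Tex12 and 94 in Sycp1. A window was found for 29 of the 34 genes, and not for Majin, Meiob, Spo11, Tex11 and Ythdc2. Taking the first window of each gene, CACGTG, which reads the same on both strands, was present in 8 of 29 (Brdt, Hormad1, Rec114, Stag3, Sycp1, Sycp3, Taf7l and Tex12), against 7.15% of all 32851 windows and 7.84% of those of protein-coding genes. Syce2 had it at the other of its annotated starts. TTCGCGC on either strand was present in 2 of 29, Stag3 and Tex12, against 1.59% of all windows. TCCCGCC, another E2F-type motif, was in 7 of 29 against 11.3%, and TGACGTCA, the cyclic AMP response element, was in 0 of 29 against 1.79%. The members are richer in CpG than all windows, and in protein-coding windows with at least 15 CpG the shares were 11.4% for CACGTG, 4.06% for TTCGCGC, 26.7% for TCCCGCC and 3.65% for TGACGTCA. Of the 20 members with at least 15 CpG, 7, 2, 6 and 0 held them.

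**Figure D2:**
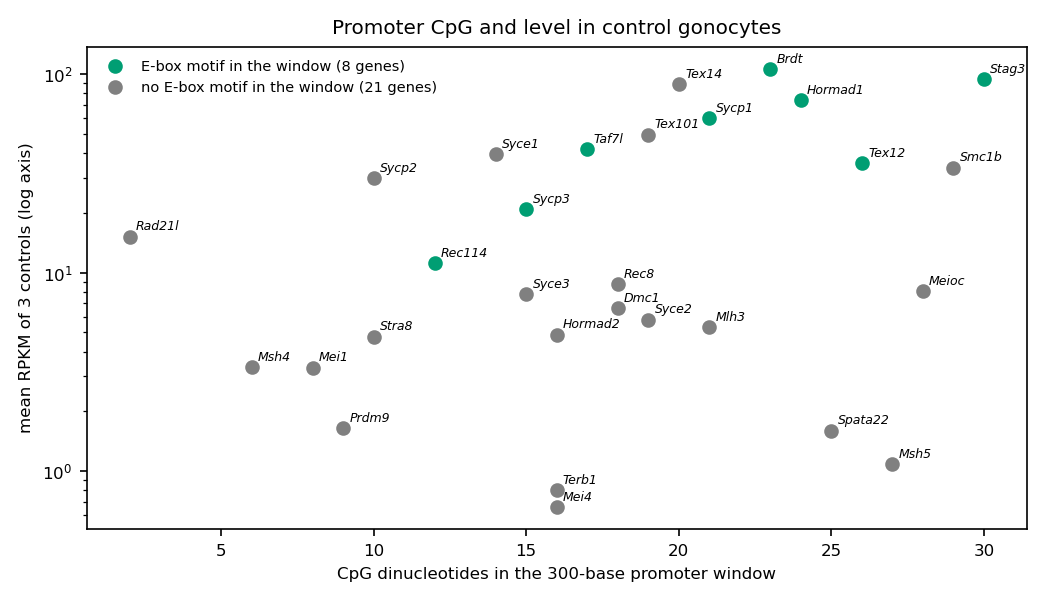
Mean level of each gene in controls, in RPKM on a log axis, against the number of CpG dinucleotides in its 300-base promoter window, for the 29 genes with a window. Where a gene has several windows, the one with the lowest start coordinate is plotted, which can differ from the window counted in the text. Syce3 is thus drawn at 15 CpG, and its other window holds 5. Green points are the 8 genes with the E-box motif, which lie between 11.2 and 106 RPKM, and grey points the 21 without it, between 0.659 and 88.9 RPKM.

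Genes with the E-box had a median of 50.9 RPKM in controls (8 genes) and those without it 5.79 RPKM (21 genes), with ranges that overlapped. Levels of all protein-coding genes with and without it were not compared, so this difference is not shown to be particular to meiosis genes. Tex14 and Tex101 were above 40 RPKM without it. CpG counts ran from 2 in Rad21l to 30 in Stag3, with a median of 18 against 13 for protein-coding genes. Msh5, among the lowest members, had 27 CpG, close to Tex12 with 26. A match of letters is not evidence of binding, and these shares are given as a description.

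No meiosis gene was called between genotypes. Of the 34, 33 were tested, Mei4 being too low, and 0 had an adjusted p under 0.01 in edgeR's quasi-likelihood test, against 0% of all 16311 genes tested. Adjusted p-values of the 33 ran from 0.460 to 0.999 in edgeR. DESeq2 also called 0 of them, against 0.0893% of the genes to which it gave an adjusted p. An unadjusted p under 0.05 was given to 3 of the 33 by edgeR, against 9.2% of all genes, and to 2 by DESeq2, against 8.22%. The log2 fold change was negative for 22 and positive for 11, with a median of -0.11 against 0.00 for all genes, of which 50% were negative. It lay within 0.5 of 0 for 27 of the 33, against 77.5% of all genes. Standard errors ran from 0.09 to 0.56, so changes of modest size were not detectable for the lower genes. Higher genes were limited too, since neither Tex15 itself at -2.35 ± 0.23 nor Sycp2 at -1.01 ± 0.45 was called by edgeR. The absence of calls therefore does not show that levels were unchanged.

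**Figure D3:**
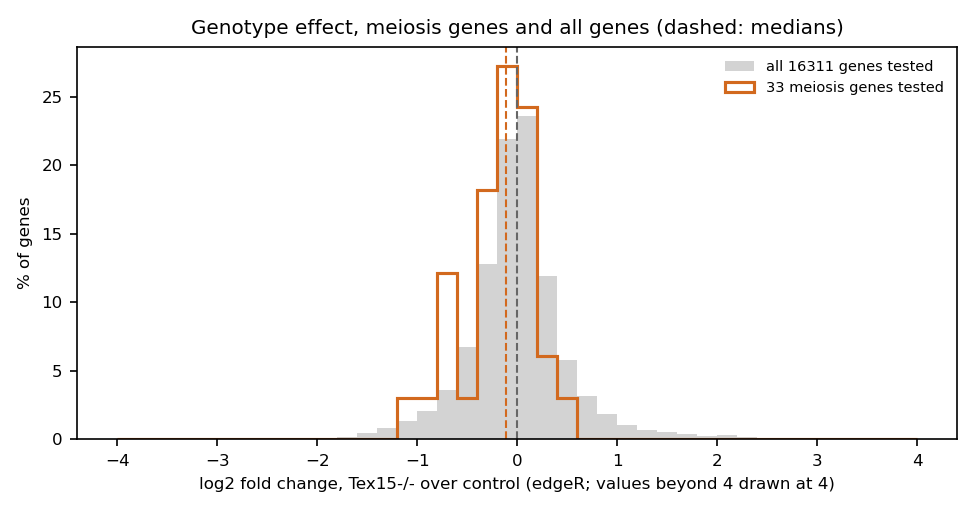
Distribution of log2 fold changes of Tex15-/- over control gonocytes, as the percentage of genes per bin, for all 16311 genes tested (grey) and the 33 meiosis genes tested (outline). Dashed lines are the medians, 0.00 and -0.11, and the outline spans -1.01 for Sycp2 to 0.40 for Meiob.

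Both groups overlapped for 28 of the 33. Every Tex15-/- library was below every control for Sycp1, Sycp3 and Majin, 3 of 33 against 6.63% of all genes, and above every control for Brdt and Stag3, 2 of 33 against 6.53%. Both shares are close to those of all genes. Sycp3 had 16.6, 24.4 and 21.5 RPKM in controls and 15.0, 11.4 and 13.9 in the mutant. The log2 fold change was -0.64 ± 0.21 (SE). Majin had 3.22, 2.78 and 2.87 against 2.05, 1.54 and 2.07 RPKM, from 14 to 18 reads in the mutant, and a log2 fold change of -0.65 ± 0.38. Brdt had 111, 122 and 128 RPKM in Tex15-/- libraries and Stag3 had 96.0, 108 and 105, with log2 fold changes of 0.18 ± 0.09 and 0.13 ± 0.09.

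The meiosis genes differed among the Tex15-/- libraries. The median log2 ratio of the 33 to the mean of controls was 0.01 in Tex15-/- library 1, -0.35 in library 2 and -0.11 in library 3, where that of all genes was 0.01, 0.00 and 0.01. Library 2 was the lowest mutant library for 22 of the 33 genes, against 37.6% of all genes. It was below every control for 24 of the 33 genes, against 36.3% of all genes. The same was true of library 3 for 11, against 30.4%, and of library 1 for 7, against 24.2%. Libraries 2 and 3 are those with the higher somatic marker sums of 536 and 189 RPKM and the lower shares of reads outside exons, whose part in these values was not tested. For the 14 germ cell identity genes tested the medians were -0.05, -0.13 and 0.00.

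**Figure D4:**
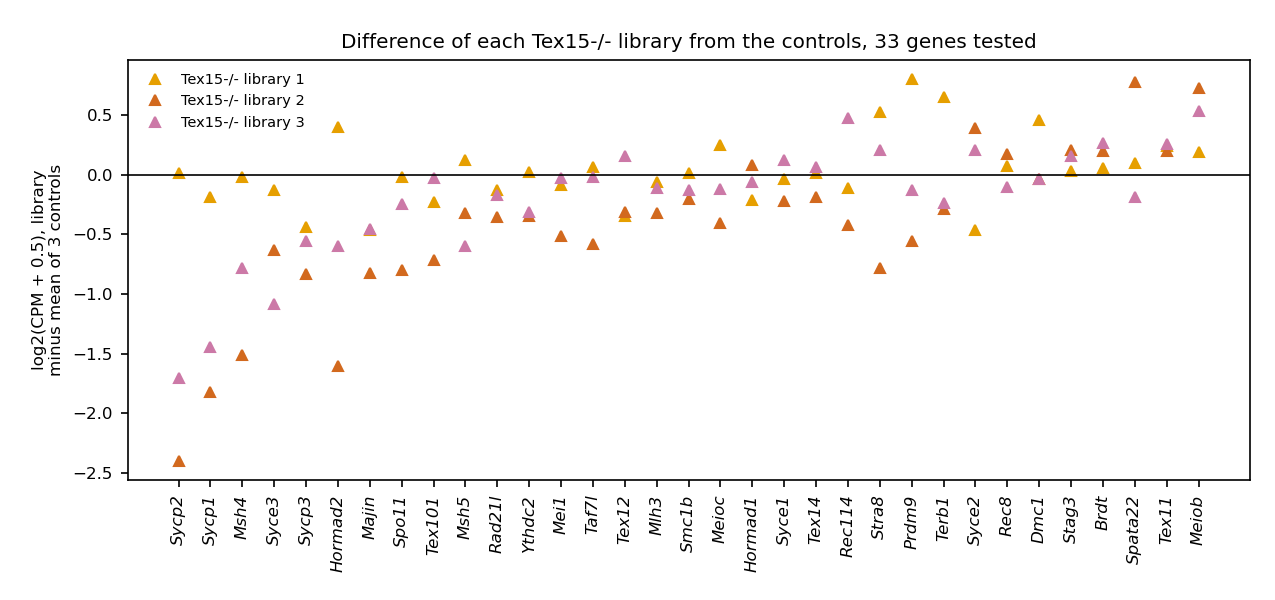
Difference of each Tex15-/- library from the mean of the 3 controls for the 33 genes tested, on the log2(CPM + 0.5) scale, with genes ordered by the mean of their 3 differences. Library 1 stays near or above 0 for Sycp2, Sycp1, Msh4 and Hormad2, where library 2 lies between -2.40 and -1.51 and library 3 between -1.71 and -0.60.

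The widest gap between mutant libraries on the log2 scale was in Sycp2 (chr2:178345293-178407685, minus strand, GRCm38). It had 31.7, 30.9 and 27.4 RPKM in controls and 30.2, 5.61 and 9.12 in Tex15-/- libraries 1, 2 and 3, from 909, 186 and 289 reads. Library 1 lay within the controls, while libraries 2 and 3 were lower by 2.40 and 1.71 on the log2 scale, ratios that only 176 and 251 of the 16311 genes were below. Over the 3 libraries the log2 fold change was -1.01 ± 0.45, with an adjusted p of 0.541 in edgeR.

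Sycp1 (chr3:102818499-102936100, minus strand, GRCm38) followed the same course. Its level was 52.5, 16.8 and 21.9 RPKM in Tex15-/- libraries against 55.5, 59.5 and 64.6 in controls. Library 1 was just below the lowest control, and the log2 ratios were -0.19, -1.83 and -1.44. The log2 fold change was -0.98 ± 0.33, with an adjusted p of 0.460 in edgeR.

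Msh4 and Hormad2 were also lower in libraries 2 and 3 alone. Msh4 had 2.99, 3.68 and 3.39 RPKM in controls and 3.30, 1.12 and 1.91 in Tex15-/- libraries. Hormad2 had 3.60, 5.50 and 5.50 RPKM in controls and 6.37, 1.45 and 3.10 in Tex15-/- libraries, and library 1 was thus above every control. Their relatives differed less between these libraries, with 63.3, 77.9 and 70.5 RPKM for Hormad1 and 1.18, 0.847 and 0.682 RPKM for Msh5, the latter from 33, 26 and 20 reads. Syce3, with 19, 14 and 9 reads against 30, 14 and 26 in controls, was lowest in library 3.

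Log2 ratios under -1 were found for 4 of the 33 genes in library 2, against 10.3% of all genes, for 3 in library 3, against 5.41%, and for 0 in library 1, against 1.11%. The 2 under -1 in both libraries 2 and 3 were Sycp1 and Sycp2, against 3.26% of all genes. Both were also within 0.25 of 0 in library 1, a pattern of 1.45% of all genes. Of the 37 further meiosis genes tested, 9 were below every control in library 1, 22 in library 2 and 16 in library 3, against 24.2%, 36.3% and 30.4% of all genes. Tex15, the mutated gene itself, is among these 37 and was below every control in each library. Above every control in libraries 1, 2 and 3 were 10, 7 and 11 of these 37, and 9, 4 and 5 of the 33. The share of all genes above every control in a single library is not given here, so these counts are description only. The median log2 ratios of the 37 were -0.02, -0.21 and -0.07 in libraries 1, 2 and 3. Mnd1 and Zcwpw1 had positive ratios in libraries 2 and 3, of 0.54 and 0.74 and of 0.25 and 0.22. Of those with low values there, chosen after their values were seen, Six6os1, a partner of SYCE1 in the central element, had 30.9, 34.4 and 39.4 RPKM in controls and 34.1, 12.9 and 20.6 in Tex15-/- libraries. Shoc1, a crossover factor, had 7.48, 7.60 and 8.52 RPKM against 8.12, 2.27 and 4.73.

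**Figure D5:**
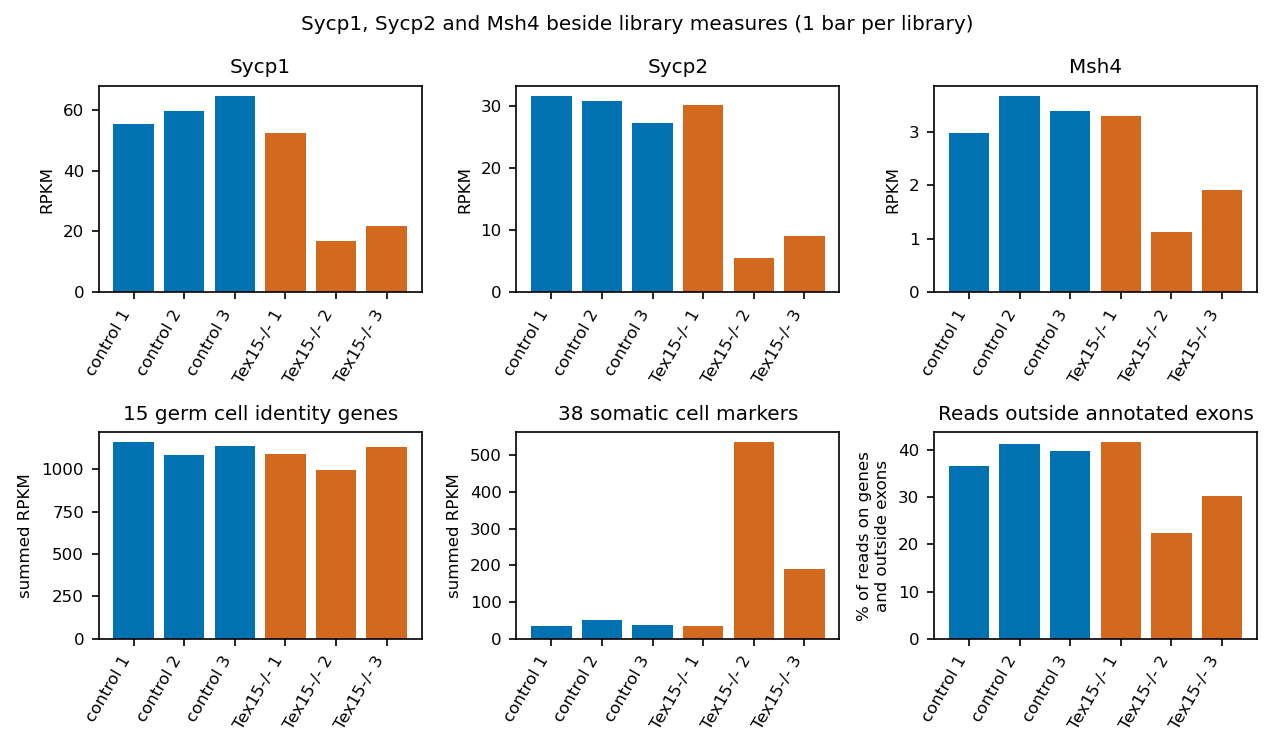
Level of Sycp1, Sycp2 and Msh4 in RPKM, summed RPKM of 15 germ cell identity genes and of 38 somatic cell markers, and the percentage of reads outside annotated exons, with 1 bar per library (blue, control; orange, Tex15-/-). Tex15-/- library 1 lies within or close to the range of controls in every panel, whereas libraries 2 and 3 are lower for the 3 meiosis genes, higher for somatic markers and lower for reads outside exons.

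The number of calls changed without Tex15-/- library 1, and the median log2 fold change of the meiosis genes was then -0.26. Without it, edgeR called 2 of 34 meiosis genes at an adjusted p under 0.01, against 2.21% of 17520 genes. Sycp1 then had a log2 fold change of -1.62 (adjusted p = 2.4e-05, edgeR), and Sycp2 had -2.02 (adjusted p = 4.6e-05, edgeR). Both were lower in the mutant, as were 0.525% of all genes by that call. For both, library 1 was the mutant library nearest to the controls, with log2 ratios of -0.19 for Sycp1 and 0.01 for Sycp2. Leaving it out lowered the standard errors from 0.33 and 0.45 to 0.13 and 0.17. These p-values therefore compare libraries 2 and 3 with controls and are no test of genotype. An unadjusted p under 0.05 was given to 8 of the 34, against 23.2% of all genes. With all libraries but no filter on low counts, edgeR called Sycp1 and Sycp2, against 1.15% of 42446 genes. The remaining Tex15-/- libraries are those with raised somatic markers. With library 1 as the only Tex15-/- library, the spread comes from the controls alone and the lone library is assumed to vary like them. In that comparison 0 of 34 were called by edgeR, against 0.0937% of 19214 genes, 1 had an unadjusted p under 0.05, against 3.74%, and the median log2 fold change was 0.01.

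No other member was called in any of these comparisons. Among entry genes Stra8 was nearly level, at 6.59, 2.50 and 5.22 RPKM in Tex15-/- libraries and a log2 fold change of 0.00 ± 0.41, and its lowest mutant library was below every control. Meioc and Ythdc2 had log2 fold changes of -0.08 ± 0.18 and -0.21 ± 0.14. The cohesin genes Smc1b, Rad21l and Rec8 had -0.11 ± 0.10, -0.23 ± 0.18 and 0.03 ± 0.20. Within the central element, Syce1 and Syce2 were near 0, at -0.04 ± 0.13 and 0.09 ± 0.28, and Tex12 had -0.16 ± 0.18.

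Among genes of break formation, Tex15-/- library 2 was the lowest mutant library for the 4 tested, against 37.6% of all genes, and below every control for the 4, against 36.3%. For Prdm9 and Rec114 it was barely below, at 1.04 against a lowest control of 1.05 RPKM and at 8.04 against 8.22. Spo11 had 5.60, 3.21 and 4.76 RPKM in Tex15-/- libraries and a log2 fold change of -0.34 ± 0.23. Prdm9 had 2.85, 1.04 and 1.44 RPKM, highest in library 1, and a log2 fold change of 0.11 ± 0.42. Rec114 was higher in library 3, with 10.1, 8.04 and 15.3 RPKM. Mei4, not tested, had 18, 9 and 17 reads in controls and 8, 7 and 6 in the mutant.

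Repair genes had log2 fold changes of both signs, none past the threshold. Tex11 had 19.0, 18.4 and 19.3 RPKM in Tex15-/- libraries, near the highest control at 19.3, and a log2 fold change of 0.22 ± 0.14. Dmc1 was 9.11, 6.43 and 6.42 RPKM, with a log2 fold change of 0.15 ± 0.22, and Mlh3 had a log2 fold change of -0.18 ± 0.16. Of the genes at the highest levels, Tex14 had 89.7, 77.8 and 92.6 RPKM and Tex101 42.3, 30.0 and 48.5, with log2 fold changes of -0.04 ± 0.10 and -0.30 ± 0.16.

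Summed over the 34 genes, levels were 786, 819 and 791 RPKM in controls and 774, 672 and 761 in Tex15-/- libraries. Of the 40 other meiosis genes 37 were tested, and 0 passed an adjusted p of 0.01 in edgeR. At 0.05, 1 passed, Tex15, the mutated gene itself, against 0.0184% of all genes in edgeR. An unadjusted p under 0.05 was given to 5 of the 37, Tex15 among them, against 9.2% of all genes. Log2 fold changes of the 37 were negative for 24, Tex15 included, and positive for 13, with a median of -0.10. Of all genes, 50% were negative. Mnd1 was above every control in all Tex15-/- libraries, at 86.4, 89.9 and 103 RPKM against 55.0, 64.3 and 66.0 in controls. Its log2 fold change was 0.59 ± 0.13 (adjusted p = 0.460, edgeR). With no filter on low counts Mnd1 was called (adjusted p = 0.0052, edgeR), against 1.15% of 42446 genes. Fkbp6, Tcfl5 and Zcwpw1 had log2 fold changes of 0.11 ± 0.12, 0.04 ± 0.11 and 0.16 ± 0.10.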

How the data were processed

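RNA-seq of E16.5 gonocytes (3 Tex15+/- control and 3 Tex15-/- libraries) was used. After depletion of ribosomal RNA with RiboGone and a stranded low-input kit, the authors aligned paired-end reads to GRCm38 with HISAT2 and deposited whole-number counts of reads per gene from htseq-count (HTSeq 0.11.1). The strand setting of the counting is not given in the sources used here. Rows for reads on no gene, ambiguous, unaligned or not unique held 61.3% to 67.3% of each table and were left out. Small RNA, transposon and testis files were not used here.

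Counts were tested with edgeR 4.0.16 (TMM, filterByExpr with minimum count 10 and total 15, quasi-likelihood test, Benjamini-Hochberg adjustment over all genes tested, call at adjusted p under 0.01). RPKM was computed on TMM-scaled gene reads over the union of exons (GENCODE annotation of GRCm38), and log2 ratios per library on CPM + 0.5. Standard errors were derived from the F statistic. Alternatives were DESeq2 1.42.0, other filters, scalings, thresholds and lengths, a block for the replicate number, and leaving out 1 library at a time. Leaving out Tex15-/- libraries 2 and 3 together and levels over unshared exon bases were added after seeing the data.

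Named genes are all 34, Tex15, of the wider meiosis list those with adjusted p under 0.05 and the 5 highest in controls, and of each marker list the 2 with the highest mean level. Six6os1, Shoc1, Dazl, Nanos3, Mov10l1, Insl3, Hba-a1 and Star fall outside this rule and were named after their values were seen. The members and lists were chosen with earlier results of these data known. Counts were simulated for this comparison (16311 genes, coefficient of variation 0.2 in every library), with the changed genes drawn from those with higher counts. In these, edgeR recovered 50% of genes changed by 1 on the log2 scale and 99% of those changed by 2, with 1 false call. The real Tex15-/- libraries were unlike each other, which the simulation leaves out. In the real data Tex15 itself, at -2.35, was not called by the reported edgeR fit at an adjusted p under 0.01, so these shares can overstate recovery. Same-group libraries differed by more than sampling noise (chi-square per degree of freedom 3.04 to 16.7), and none were taken as duplicates.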

Additional observations from a re-analysis of the deposited data

How the results depend on the processing

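The count of 30 transcribed genes was 28 to 33 under other limits, lengths and units and 30 to 31 with a control left out. Genes called over all were 0, but 488 with no filter, 1 with at least 10 counts in every library, 14 with DESeq2, 2 with the newer quasi-likelihood estimate, 3 at an adjusted p under 0.05, 18 without Tex15-/- libraries 2 and 3, and 0 to 388 with each library left out in turn, the highest without Tex15-/- library 1. Meiosis genes called were 2 with no filter (Sycp1 and Sycp2, against 1.15% of 42446 genes) and 0 to 2 with a library left out. The 40 other meiosis genes include Tex15 itself. Of them 3 were called with no filter, Mnd1 and Six6os1 among them, against 1.15% of 42446 genes. With at least 10 counts in every library, with DESeq2, with the newer estimate and at 0.05, 1 was called. At 0.05 this was Tex15, and with DESeq2 the share of all genes was 0.0893%. With a library left out, 0 to 3 were called. Without Brdt, the mean summed level was 692 RPKM in controls and 615 in Tex15-/- libraries.

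The log2 fold change kept its sign under every alternative for 14 of the 33 genes. For the others it lay between -1.01 (Sycp2) and 0.32 (Spata22) in the reported fit, and none was past the threshold where its sign changed. Stra8 was -0.0125 with at least 10 counts in every library and -0.0303 on total counts, where Rec8 was -0.0030. Rec114 was 0.0273 with no filter, 0.000694 with DESeq2 size factors, 0.000669 with DESeq2 and 0.0028 with the newer estimate. Without Tex15-/- libraries 2 and 3, Meioc was 0.25, Ythdc2 0.0244, Smc1b 0.0117, Sycp2 0.0087, Syce2 -0.49, Hormad2 0.39, Msh5 0.13, Taf7l 0.0636 and Tex14 0.0161. With each library left out in turn, the range was -0.29 to 0.37 for Stra8, -0.26 to 0.0698 for Meioc, -0.11 to 0.23 for Rec8, -0.12 to 0.0479 for Syce1, -0.0913 to 0.32 for Syce2, -0.14 to 0.0199 for Hormad1, -0.37 to 0.0346 for Mei1, -0.29 to 0.20 for Rec114, -0.39 to 0.39 for Prdm9, -0.0258 to 0.24 for Dmc1, -0.0776 to 0.58 for Spata22, -0.31 to 0.30 for Terb1, -0.26 to 0.0246 for Taf7l and -0.0792 to 0.0397 for Tex14. The cause of these changes was not tested.

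Libraries of the same number did not deviate together (correlations of -0.14, -0.04 and -0.01), which gives no sign that the numbers pair them. So few libraries per genotype cannot exclude a pairing, and the labels state none. With the number as a block, 0 genes overall and 0 meiosis genes were called, and the median of the meiosis genes was -0.11.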
